A study of Homo sapiens with 12 samples.

Results

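The genes ID4, SNAI2 and MAF, which encode regulators of transcription active in the neural crest and in cell lineages, were followed in A375, an established melanoma line of human origin that carries an activating BRAF mutation, over 12 RNA-seq libraries. They are 3 of the 8579 genes in the count table. They were picked by symbol with their levels in these libraries already known, so the levels of these 3 genes and the differences between groups are given as a description, with standard errors and without p-values. The 4 groups, with 3 libraries each, were COMBO (SEL201 at 2.5 µM plus OTX015 at 50 nM), OTX015 alone (50 nM), SEL201 alone (2.5 µM) and UNTREATED, whose treatment label is the solvent DMSO. All treatments lasted 72 hours in medium with serum. OTX015 blocks BET proteins, readers of acetylated chromatin, and SEL201 blocks the MNK kinases, whose substrate is the cap-binding factor eIF4E. The libraries carry the numbers 1 to 3 in each group.

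ID4 belongs to the ID family, whose helix-loop-helix proteins lack a DNA-binding basic region and hold basic helix-loop-helix (bHLH) factors such as the E proteins away from DNA. ID genes are known targets of BMP signalling. SNAI2, also called SLUG, is a zinc finger repressor that binds E-boxes, is known for its part in neural crest migration and epithelial-mesenchymal transition, and is needed for melanocyte development in mice. MAF is a large MAF factor of the basic leucine zipper (bZIP) class, known from lens development and T cells. Large MAF proteins such as MAF, MAFA and NRL carry an activation domain, which the small ones (MAFF, MAFG, MAFK) lack.

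The upstream promoter sequences of ID4 and MAF, and of ID2, the measured close relative of ID4, are shown because their transcripts were all highest in COMBO and E-boxes are the sites that bHLH and SNAIL proteins recognise. Each line gives the 250 bases before the RefSeq start on GRCh38.p14, read 5′ to 3′ on the gene's strand, with every E-box (CANNTG) in capitals.
ID4, chr6:19837120-19837369, plus strand: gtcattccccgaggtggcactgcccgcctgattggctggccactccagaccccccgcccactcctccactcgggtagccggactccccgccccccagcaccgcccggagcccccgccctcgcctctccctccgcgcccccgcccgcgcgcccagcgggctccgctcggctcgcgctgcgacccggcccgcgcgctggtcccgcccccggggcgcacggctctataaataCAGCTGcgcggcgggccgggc
MAF, chr16:79600738-79600987, minus strand: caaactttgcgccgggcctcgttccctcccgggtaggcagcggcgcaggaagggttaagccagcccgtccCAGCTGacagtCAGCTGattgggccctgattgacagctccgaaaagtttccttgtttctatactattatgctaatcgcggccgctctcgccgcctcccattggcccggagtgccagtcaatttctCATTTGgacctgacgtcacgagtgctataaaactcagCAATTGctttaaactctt
ID2, chr2:8681806-8682055, plus strand: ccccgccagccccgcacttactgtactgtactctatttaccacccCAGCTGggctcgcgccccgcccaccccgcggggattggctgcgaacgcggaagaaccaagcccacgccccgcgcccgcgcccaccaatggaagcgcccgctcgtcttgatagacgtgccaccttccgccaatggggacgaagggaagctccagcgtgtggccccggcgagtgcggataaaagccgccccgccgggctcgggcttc

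The E-box letters CANNTG, which read the same on both strands, occur 1 time before ID4, 1 time before ID2 and 4 times before MAF. The form CAGCTG, 1 kind of CANNTG, is in all 3 windows. It starts 21 bases before the ID4 start, 205 before the ID2 start, and 180 and 169 before the MAF start. Among all 35116 RefSeq windows of this length, 61.8% held any E-box and 14% this form. The E-box CACCTG, searched on both strands, was in 17.5% of windows and in none of these 3. TATAAA, the core of the TATA box, searched on both strands, starts 29 bases before the ID4 start and 30 before the MAF start, and 10.7% of windows held it. The cyclic AMP response element TGACGTCA, the same on both strands, begins 45 bases before the MAF start and was found in 1.65% of windows. The GC box CCGCCC, searched on both strands and held by 42.6% of windows, occurs 6 times before ID4, 2 times before ID2 and not before MAF. The windows were 78.8% G or C for ID4, 69.2% for ID2 and 54.4% for MAF. Among the 8546 windows of measured genes the shares were 56.8% for any E-box, 14.1% for CAGCTG, 16.8% for CACCTG, 6.49% for the TATA box, 2.01% for the cyclic AMP element and 60.3% for the GC box. These are letter matches only. SNAI2, on chromosome 8, is described by its levels alone.

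Levels are in CPM, the read count scaled to a common total over the 8579 genes, after TMM scaling between libraries. Totals over these genes ran from 15146071 to 24111541 per library, which is not the sequencing depth, since only genes with mean counts of 78.67 to 9158.7 are in the table. As pigment-cell markers, 12 of 20 listed genes were measured, with summed levels of 403 to 443 CPM in COMBO, 436 to 449 in OTX015, 495 to 535 in SEL201 and 680 to 780 in UNTREATED. Of these 12 genes, 3 were higher and 4 lower with COMBO by edgeR's test (median log2 change -0.02). CDH19, a cadherin of the Schwann and melanocyte lineage, averaged 67.0 CPM in COMBO and 371 CPM in UNTREATED, and the other 11 genes summed to 340 to 380.2 CPM in COMBO and 337 to 384 CPM in UNTREATED. S100B, a calcium-binding protein, averaged 103 CPM in COMBO and 54.1 CPM in UNTREATED, and the pigment genes MLANA and PMEL averaged 6.58 and 5.50 CPM in COMBO and 4.19 and 4.87 CPM in UNTREATED. Of markers of other cells, 2 of 8 for keratinocytes (summed 233 to 257 CPM in COMBO and 370 to 383 in UNTREATED), 5 of 8 for fibroblasts (86.4 to 93.3 in COMBO and 138 to 184 in UNTREATED), 1 of 7 for leukocytes (19.5 to 22.6 and 39.2 to 50.2) and 1 of 5 for endothelium (101 to 157 and 81.0 to 142) were measured. Their part in the results was not tested. The labels name A375 cells alone, so these genes are read as levels in this line and not as counts of other cell kinds. In these bulk libraries, fewer cells with a transcript and less of it per cell cannot be told apart.

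ID4 was lowest in UNTREATED and highest in COMBO, with OTX015 above SEL201 between them. Its level was 23.4, 19.8 and 22.1 CPM in the COMBO libraries numbered 1, 2 and 3, 17.4, 14.8 and 16.01 CPM in OTX015, 11.5, 10.9 and 11.3 CPM in SEL201 and 7.29, 4.81 and 3.47 CPM in UNTREATED. The 4 groups did not overlap anywhere in this order, a pattern shown by 3.52% of all genes. Group means were 21.8 ± 1.78 CPM in COMBO, 16.1 ± 1.27 in OTX015, 11.2 ± 0.336 in SEL201 and 5.19 ± 1.94 in UNTREATED (SD, n = 3 each). The UNTREATED libraries varied most, with a coefficient of variation of 37.3% against 2.99% to 8.19% in the treated groups. They also rest on the fewest reads, 170, 116 and 70 counts, and the 70 counts of number 3 have an exact 95% Poisson interval of 54.6 to 88.4, which covers counting error only.

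Against UNTREATED, the log2 change of ID4 was 2.06 with COMBO (SE 0.19), 1.62 with OTX015 (SE 0.19) and 1.10 with SEL201 (SE 0.19), or 4.16-fold, 3.07-fold and 2.15-fold. Taken between libraries of the same number, COMBO was 3.17-fold, 4.06-fold and 6.22-fold above UNTREATED for numbers 1, 2 and 3. Ratios without UNTREATED were closer together by number, as COMBO stood 2.02-fold, 1.82-fold and 1.95-fold above SEL201 and 1.34-fold, 1.34-fold and 1.38-fold above OTX015. OTX015 exceeded SEL201 by 0.52 on the log2 scale (SE 0.18). ID4 ranked 12th of 8579 genes by log2 change with COMBO, 13th with OTX015 and 8th with SEL201. In the same order SNAI2 ranked 56th, 138th and 21st, and MAF 58th, 266th and 99th. The genes were picked with these levels known, so nothing is read from the ranks.

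SNAI2 was also highest in COMBO and lowest in UNTREATED, but the groups with a single agent overlapped. Its level was 31.9, 22.2 and 22.6 CPM in COMBO, 17.4, 13.8 and 16.9 CPM in OTX015, 21.6, 16.1 and 13.8 CPM in SEL201 and 10.9, 8.63 and 7.84 CPM in UNTREATED for numbers 1 to 3. The library numbered 1 was the highest of every group. COMBO did not overlap with any other group, nor did UNTREATED, while OTX015 and SEL201 overlapped. The means were 25.6 ± 5.47 CPM in COMBO, 16.02 ± 1.92 in OTX015, 17.2 ± 4.02 in SEL201 and 9.12 ± 1.58 in UNTREATED (SD, n = 3 each).

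SNAI2 differed from UNTREATED by a log2 change of 1.49 with COMBO (SE 0.19), 0.81 with OTX015 (SE 0.19) and 0.92 with SEL201 (SE 0.19), or 2.8-fold, 1.75-fold and 1.89-fold. Same-numbered libraries gave 2.91-fold, 2.55-fold and 2.86-fold for COMBO over UNTREATED. COMBO was above SEL201 by 0.57 (SE 0.18) and above OTX015 by 0.68 (SE 0.18) on the log2 scale. OTX015 minus SEL201 was -0.11 (SE 0.19), with OTX015 lower for numbers 1 and 2 and higher for number 3.

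MAF, the most abundant of the 3 per length of transcript, was highest in COMBO and lowest in UNTREATED, and OTX015 and SEL201 had similar means. Its level was 339, 319 and 392 CPM in COMBO, 194, 186 and 206 CPM in OTX015, 192, 176 and 201 CPM in SEL201 and 129, 114 and 135 CPM in UNTREATED. In every group the number 3 library was the highest and number 2 the lowest. COMBO stood above every other library and UNTREATED below every other, with OTX015 and SEL201 overlapping. Group means were 349.6 ± 37.7 CPM in COMBO, 195 ± 10.1 in OTX015, 190 ± 12.7 in SEL201 and 126 ± 10.6 in UNTREATED (SD, n = 3 each).

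The log2 change of MAF against UNTREATED was 1.47 with COMBO (SE 0.08), 0.63 with OTX015 (SE 0.08) and 0.59 with SEL201 (SE 0.08), or 2.78-fold, 1.55-fold and 1.51-fold. Same-numbered libraries gave 2.63-fold, 2.79-fold and 2.9-fold for COMBO over UNTREATED. COMBO was 1.84-fold above SEL201 and 1.79-fold above OTX015, and OTX015 minus SEL201 was 0.04 on the log2 scale (SE 0.08). Divided by merged exon length in GENCODE v29, MAF had 50.1 CPM per kilobase in COMBO and 18.05 in UNTREATED, ID4 9.28 and 2.21, and SNAI2 7.54 and 2.69.

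**Figure D1:**
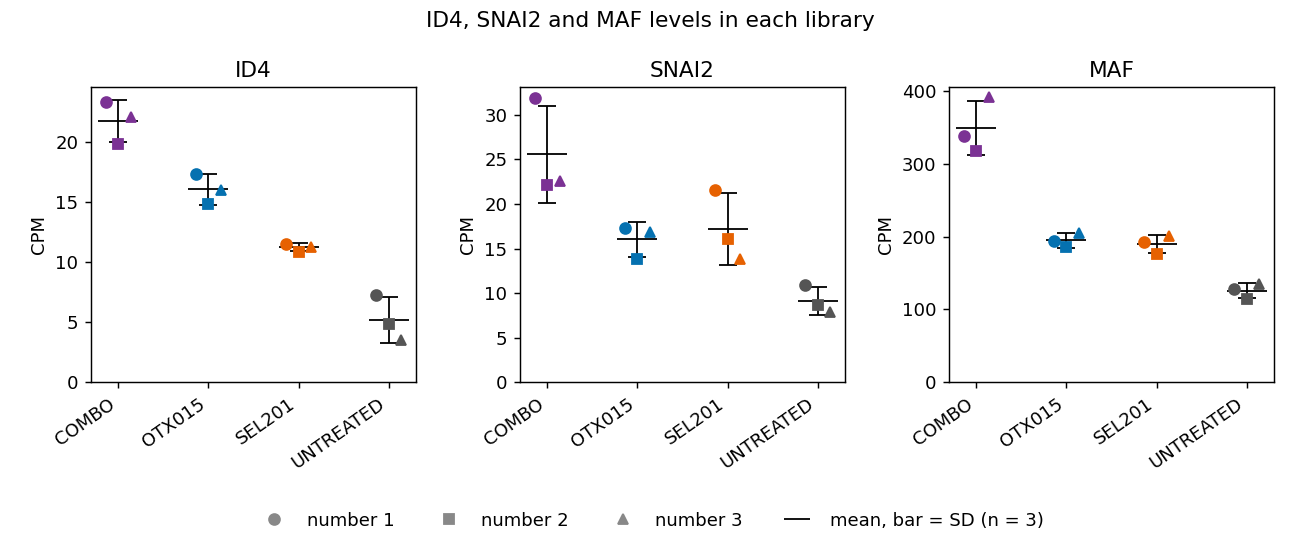
Level in CPM (y axes, linear from 0, each gene on its own scale) of ID4, SNAI2 and MAF in every library of the 4 groups (x axes); marker shapes give the library number and black bars the group mean ± SD (n = 3). The 4 groups of ID4 are separate, with COMBO at 19.8 to 23.4 CPM and UNTREATED at 3.47 to 7.29 CPM, while OTX015 and SEL201 overlap for SNAI2 and MAF.

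For all 3 genes COMBO libraries did not overlap with UNTREATED ones, as held for 30.6% of all genes in the higher direction, and the same was true of OTX015 (28% of genes) and SEL201 (18% of genes) against UNTREATED. COMBO was above SEL201 without overlap for all 3 (23.4% of genes) and above OTX015 without overlap for all 3 (12.2% of genes). OTX015 lay above SEL201 without overlap for ID4 only of the 3 (18.9% of genes). UNTREATED was below every treated library in 14.2% of genes and COMBO above every other library in 8.77%. These shares stand beside counts that the choice of the genes used, and nothing is read from them.

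The 3 interaction values differed in sign. The interaction, the COMBO change minus the sum of the SEL201 and OTX015 changes on the log2 scale, was -0.66 for ID4 (SE 0.26), -0.24 for SNAI2 (SE 0.27) and 0.25 for MAF (SE 0.11). With the library number as a block it was -0.68 (SE 0.20), -0.25 (SE 0.16) and 0.24 (SE 0.06). In libraries of the same number it was -0.23, -0.74 and -1.21 for ID4, below 0 in each. It was -0.11, -0.21 and -0.38 for SNAI2, also below 0 in each, and 0.22, 0.15 and 0.35 for MAF, above 0 in each. Leaving out 1 library at a time moved it from -0.991 (without UNTREATED number 1) to -0.456 (without UNTREATED number 3) for ID4, from -0.431 (without COMBO number 1) to -0.0343 (without SEL201 number 1) for SNAI2 and from 0.159 to 0.313 for MAF. UNTREATED libraries enter all 3 terms, so this value shares their spread.

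**Figure D2:**
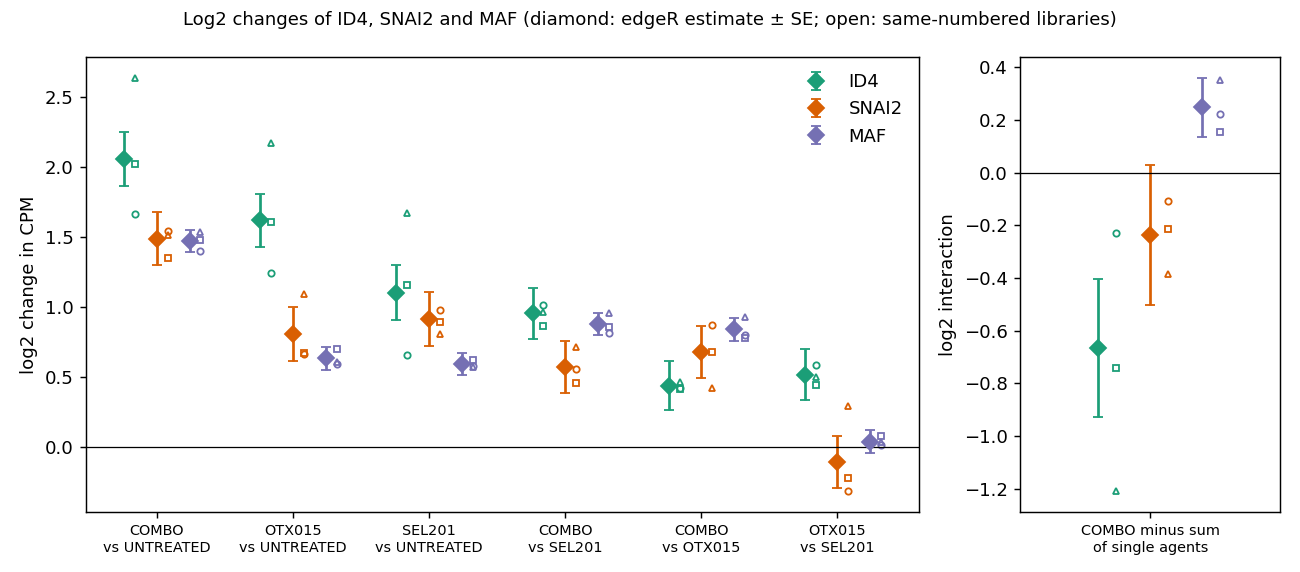
Log2 change in CPM (left, y axis) of ID4, SNAI2 and MAF in 6 contrasts between groups, and the interaction on the log2 scale (right), as edgeR estimates ± SE (diamonds) with the differences between same-numbered libraries beside them (open circle, square and triangle for numbers 1, 2 and 3). The ID4 changes against UNTREATED spread widely by number, from 1.67 to 2.64 for COMBO, and those against SEL201 or OTX015 do not; the interaction lies below 0 for ID4 and SNAI2 and above 0 for MAF.

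Within groups the 3 genes did not vary alike. ID4 and SNAI2 were highest in the number 1 library of all 4 groups, on average 0.20 and 0.27 above their group means on the log2 scale. By group this ran from 0.04 to 0.55 for ID4, the largest in UNTREATED, and from 0.12 to 0.36 for SNAI2. MAF was highest in the number 3 library of all 4 groups, on average 0.11 above its group means. Over the 12 libraries, which share 4 groups and 3 numbers, the log2 levels of ID4 and SNAI2 correlated at r = 0.91, those of ID4 and MAF at 0.87 and those of SNAI2 and MAF at 0.88. Other genes were more similar to each member: SNAI2 was the 458th most similar of 8578 other genes to ID4, and ID4 the 68th most similar to SNAI2. MAF was the 825th most similar to ID4 and the 203rd to SNAI2. To MAF, ID4 was the 596th most similar and SNAI2 the 496th.

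By this measure the genes most like ID4 were KIF13A (a kinesin), WDR91 (an endosomal protein), FGFR3 (a receptor tyrosine kinase), FAM46A and AASS (an enzyme of lysine breakdown), with r of 0.98 to 0.99. Those most like SNAI2 were SPRR2D, a cornified envelope gene (r = 0.98), EDEM2, of glycoprotein quality control, TESC, DCAF11 and CFAP36 (r = 0.96 each). Those most like MAF were KIAA1324L (0.99), DPY19L3, MFSD6, MAN2B2, a mannosidase, and LONRF2 (0.97 to 0.98). The most opposite patterns were those of SP100, HHEX and ITGB2 for ID4, DLC1, SLFN12 and LINC00839 for SNAI2 and RAB31, TAF1A and SNCG for MAF, with r between -0.99 and -0.96. Likeness here is of shape and not of size: KIF13A had 432 CPM in COMBO and 306.5 in UNTREATED, a log2 change of 0.50, and TESC 170.0 and 57.5, a log2 change of 1.56. An r above 0.9 was reached with ID4 by 533 genes, with SNAI2 by 94 and with MAF by 330, of 8578.

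The close relatives were not used to choose the 3 genes and were tested with edgeR's quasi-likelihood test, adjusted by Benjamini-Hochberg over all 8579 genes at a threshold of 0.05. At it, 28.3% of all genes were higher and 29.6% lower with COMBO, 23.3% and 24.7% with OTX015, and 10.1% and 11.1% with SEL201, all against UNTREATED. Of 10 listed relatives in the ID, SNAIL and MAF families, 6 were measured.

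ID2 had the same order of groups as ID4, with a smaller rise with SEL201. It had 108.0, 93.8 and 93.9 CPM in COMBO, 92.0, 76.4 and 70.0 CPM in OTX015, 51.4, 42.7 and 42.5 CPM in SEL201 and 37.8, 31.0 and 30.9 CPM in UNTREATED. The 4 groups did not overlap in this order, as held for 3.52% of all genes. COMBO against OTX015 was not called (log2 change 0.31, SE 0.11, edgeR adjusted p = 0.121, or 0.000127 with the library number as a block). The interaction of ID2 was -0.14 (SE 0.16), against -0.66 for ID4. As for ID4, the number 1 library was the highest in each group. ID2 rose 2.97-fold with COMBO (log2 change 1.57, SE 0.12, edgeR adjusted p = 6e-08) and 2.39-fold with OTX015 (1.26, SE 0.12, adjusted p = 1.09e-06). With SEL201 it rose 1.37-fold (0.45, SE 0.12, edgeR adjusted p = 0.0131), a call lost without UNTREATED number 2 (adjusted p = 0.057) or SEL201 number 1 (0.0709). Per kilobase of exon, ID2 had 44.7 CPM in COMBO and 15.1 in UNTREATED, above ID4 in both.

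SNAI1, the SNAIL repressor closest to SNAI2, did not follow it. It had 176, 174 and 151 CPM in COMBO, 217, 196 and 167 CPM in OTX015, 209, 209 and 163 CPM in SEL201 and 206, 195 and 191 CPM in UNTREATED, with the number 3 library lowest in every group. Its log2 change with COMBO was -0.24 (SE 0.10, edgeR adjusted p = 0.0578). This passed the threshold in 4 of 13 alternatives: with the library number as a block (adjusted p = 4.89e-05), with DESeq2 (0.0409), with only the compared groups (0.013) and without the number 3 libraries (0.0105). The changes with OTX015 and SEL201 were -0.03 each (SE 0.10, edgeR adjusted p = 0.837 and 0.89). Per kilobase, SNAI1 stood at 99.0 CPM in COMBO and 117 in UNTREATED, above SNAI2 in both.

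Among listed MAF genes, MAFA rose and MAFF and MAFK fell with COMBO. MAFA, a large MAF gene best known from pancreatic beta cells, had 11.2, 11.003 and 12.8 CPM in COMBO, 12.1, 9.08 and 7.78 CPM in OTX015, 5.10, 6.61 and 4.76 CPM in SEL201 and 4.29, 4.52 and 4.22 CPM in UNTREATED. It rose 2.68-fold with COMBO (log2 change 1.42, SE 0.18, edgeR adjusted p = 9.03e-06) and 2.22-fold with OTX015 (1.15, SE 0.18, adjusted p = 0.000111), and had a log2 change of 0.34 with SEL201 (SE 0.18, adjusted p = 0.22).

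Of the other MAF genes, the small MAF gene MAFF had 249 ± 17.4 CPM in COMBO and 372 ± 22.9 in UNTREATED, and MAFK 94.4 ± 5.54 and 126.5 ± 7.25 (SD, n = 3). Both fell with COMBO (log2 change -0.58 and -0.42, edgeR adjusted p = 1.08e-05 and 8.95e-05) and with OTX015 (-0.49 and -0.39, adjusted p = 7.95e-05 and 0.000248). Their falls with SEL201 (-0.23 and -0.20, edgeR adjusted p = 0.0381 and 0.0454) were each lost in 5 of 6 fits that leave out 1 library (adjusted p up to 0.137 and 0.179). NRL, a retinal MAF factor, did not pass with any treatment (-0.32 on the log2 scale with COMBO, edgeR adjusted p = 0.11). MAFF, MAFK and NRL overlap genes on the opposite strand in GENCODE v29, as ID4 and ID2 overlap antisense RNAs, and the strand setting of the counting is not given, so reads of such partners cannot be told apart. TMEM184A, the partner of MAFK, had 15.2 CPM in COMBO and 52.1 CPM in UNTREATED (log2 change -1.78, edgeR adjusted p = 1.54e-08), a difference in CPM about as large as that of MAFK. PLA2G6, the partner of MAFF, had 33.5 CPM in COMBO and 41.7 CPM in UNTREATED (-0.32, edgeR adjusted p = 0.025). Their part in the MAFK and MAFF counts was not tested.

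**Figure D3:**
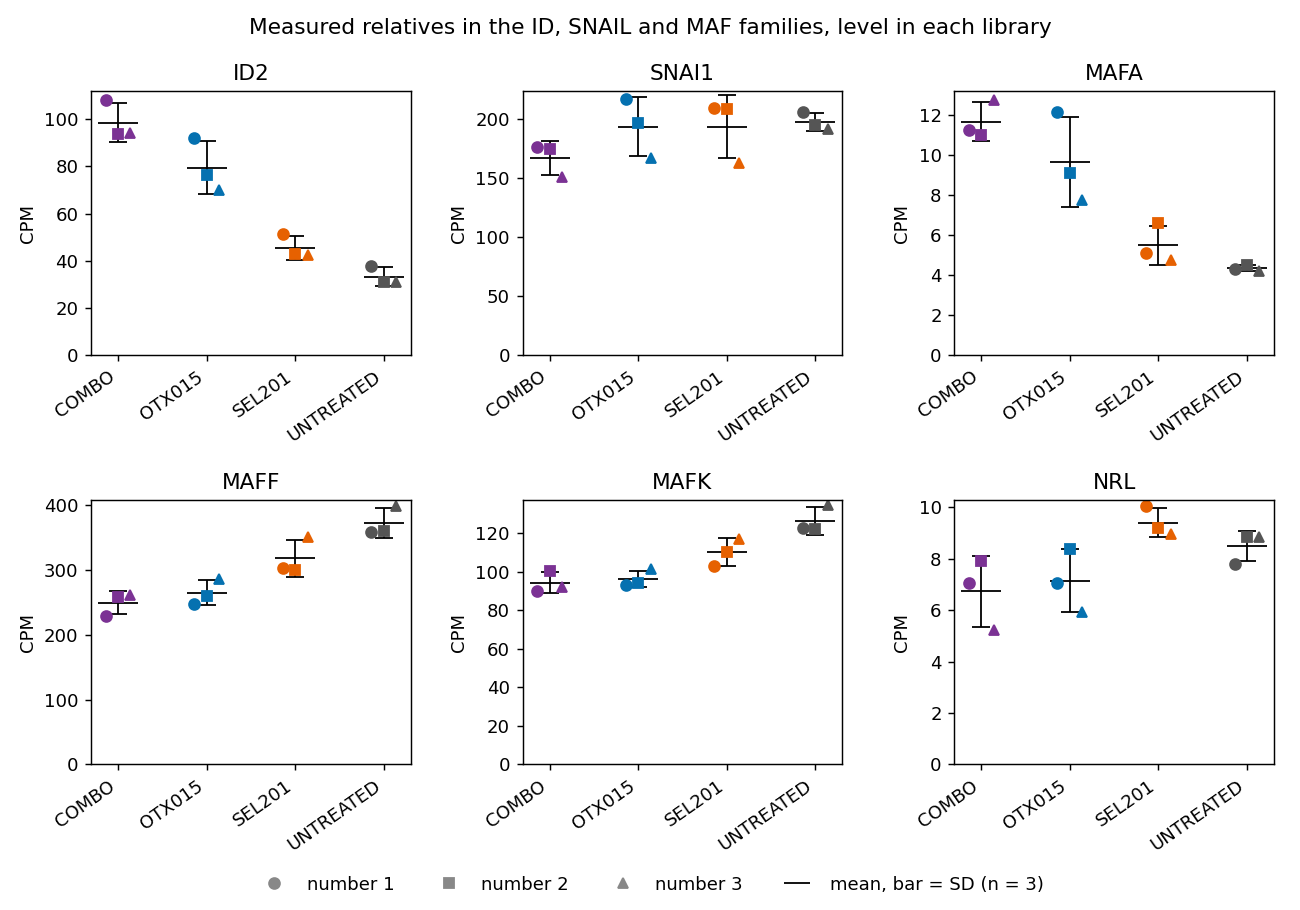
Level in CPM (y axes, linear from 0, each gene on its own scale) of the 6 measured relatives in every library of the 4 groups; marker shapes give the library number and black bars the mean ± SD (n = 3). ID2 and MAFA have their highest mean in COMBO, MAFF and MAFK their lowest, and SNAI1 libraries overlap except COMBO with UNTREATED.

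Other genes that work with these factors were counted in 5 lists, chosen with earlier results of these data known. Among ID proteins and bHLH factors other than ID4, 20 of 38 were measured. With COMBO 4 were higher and 12 lower (median log2 change -0.47, against 0.00 over all genes). The counts were 3 and 9 with OTX015 (median -0.29) and 3 and 3 with SEL201 (median -0.09). With the library number as a block, 3180 of all 8579 genes were called with SEL201 (1820 without it). In this list the block gave 6 and 7 with SEL201. Beside ID2, those that rose most with COMBO were the Notch-responsive gene HEY2 (42.9 ± 4.11 CPM in COMBO and 15.1 ± 4.08 in UNTREATED, log2 change 1.49, edgeR adjusted p = 1.61e-06) and HES6 (101.5 ± 2.64 and 46.9 ± 6.08 CPM, 1.11, adjusted p = 3.96e-08). Those that fell most were ATOH8 (log2 change -1.56, edgeR adjusted p = 1.7e-05), TCF15 (-1.17, adjusted p = 0.000836) and HES2 (-0.98, adjusted p = 6.65e-06). TCF4, the one E protein measured, fell by 0.46 with COMBO.

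Among SNAIL, ZEB and TWIST factors, SNAIL cofactors and known targets, 11 of 34 were measured. With COMBO 1 was higher and 7 lower, with OTX015 1 and 7, and with SEL201 1 and 4. The gene that rose was TWIST1, a bHLH factor of the neural crest, with 210 ± 6.5 CPM in COMBO, 194 ± 10.9 in OTX015, 181 ± 11.8 in SEL201 and 133 ± 2.93 in UNTREATED. Its log2 change was 0.65 with COMBO (SE 0.06, edgeR adjusted p = 2.17e-07), 0.54 with OTX015 (adjusted p = 2.74e-06) and 0.44 with SEL201 (adjusted p = 0.000104). TWIST2 fell by 0.85 with COMBO (edgeR adjusted p = 4.58e-07), so the TWIST genes went opposite ways. AJUBA, a LIM protein that acts as a SNAIL corepressor, fell to 164 ± 33.4 CPM in COMBO, against 445 ± 71.7 in UNTREATED (log2 change -1.44, edgeR adjusted p = 2.41e-06). CLDN1, a tight junction gene that SNAIL proteins are known to repress, fell to 13.1 ± 1.85 CPM in COMBO, against 35.3 ± 2.87 in UNTREATED (log2 change -1.44 with COMBO, edgeR adjusted p = 2.2e-07). In OTX015 its mean was 11 ± 1.48 CPM (log2 change -1.68, edgeR adjusted p = 1.29e-07), overlapping with COMBO, and in SEL201 24.5 ± 1.1 CPM. CLDN1 was thus not lowest where SNAI2 was highest, and a link between them was not tested. ZEB2 stood at 0.04 (edgeR adjusted p = 0.48).

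Among the MAF family and partner bZIP factors other than MAF, 14 of 23 listed genes were measured, with 4 higher and 7 lower under COMBO (median -0.25), 4 and 6 under OTX015 (median -0.24) and 1 and 5 under SEL201 (median -0.11). FOS, which can pair with MAF, rose to 97.9 ± 7.86 CPM in COMBO, 67.0 ± 4.21 in OTX015 and 48.7 ± 4.93 in SEL201, against 30.7 ± 1.86 in UNTREATED (log2 change 1.67 with COMBO, edgeR adjusted p = 2.79e-09). BACH2, a partner of small MAF proteins, rose by 0.57 with COMBO (edgeR adjusted p = 0.00469). The largest falls among the listed genes were those of BATF2 (log2 change -1.52, edgeR adjusted p = 1.36e-07), FOSL2 (-0.74, adjusted p = 1.16e-08) and NFE2, which pairs with small MAF proteins (-0.73, adjusted p = 0.00116).

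Among neural crest and melanocyte lineage regulators, 29 of 53 were measured. With COMBO 8 were higher and 10 lower (median 0.02), with OTX015 8 and 7 (median 0.05), and with SEL201 4 and 3 (median 0.00). With the library number as a block the counts were 12 and 10 with COMBO, 10 and 11 with OTX015 and 10 and 6 with SEL201, so that the larger of the 2 directions changed with COMBO and with OTX015. The T-box gene TBX2 rose most, to 614 ± 48.2 CPM in COMBO, 522 ± 42.1 in OTX015 and 410 ± 12.9 in SEL201, against 209.8 ± 21.4 in UNTREATED (log2 change 1.55 with COMBO, edgeR adjusted p = 1.27e-09). Its interaction was -0.73 (SE 0.11, edgeR adjusted p = 0.0109, or 0.0502 without UNTREATED number 2), a test that called 0.21% of all genes above 0 and 0.0699% below. FOXD3, an early neural crest factor, rose by 0.80 with COMBO (edgeR adjusted p = 0.000196) and SOX2 by 0.65 (adjusted p = 0.00191). NR2F1 fell by 0.85 with COMBO (edgeR adjusted p = 0.000255) and TFEB by 0.90 (adjusted p = 0.00318). NGFR, the neural crest stem cell receptor, fell by 0.73 with COMBO (edgeR adjusted p = 0.0136), a call lost without UNTREATED number 3 (-0.444, adjusted p = 0.0816) or COMBO number 1 (adjusted p = 0.0587). With SEL201 its log2 change was -1.04 (edgeR adjusted p = 0.00584), a call kept in all 13 alternatives, and with OTX015 -0.65 (adjusted p = 0.0293). SEL201 and COMBO libraries overlapped. MITF, the melanocyte master regulator, fell by 0.17 (edgeR adjusted p = 0.0297), and PAX3, which acts upstream of it, rose by 0.22 (adjusted p = 0.00184).

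Among genes of BMP and TGF-beta signalling to SMAD proteins, of which BMP signalling is known to induce ID genes, 28 of 58 were measured. Of these, 8 were higher and 14 lower under COMBO (median -0.21), 9 and 12 under OTX015 and 5 and 10 under SEL201. The ligand genes BMP8B (log2 change 0.91, edgeR adjusted p = 1.12e-07) and BMP8A (0.89, adjusted p = 0.00114), which are near-identical copies that can share reads, and LTBP1 (0.87, adjusted p = 8.98e-07) rose most with COMBO. The activin and BMP antagonist gene FST fell most, to 17.0 ± 2.95 CPM in COMBO, against 224 ± 31.97 in UNTREATED (log2 change -3.71, edgeR adjusted p = 1.15e-10). GDF15 (-2.87, edgeR adjusted p = 1.33e-09) and LTBP2 (-2.74, adjusted p = 2.27e-11) followed. The BMP antagonist gene NOG fell by 0.94 (edgeR adjusted p = 0.000184), the inhibitory SMAD gene SMAD6 fell by 1.16 (adjusted p = 4.68e-08), and SMAD1, a transducer of BMP signals, stood at -0.09 (adjusted p = 0.362). Others of this list went both ways with COMBO. BMP2 fell by 0.49 (edgeR adjusted p = 7.59e-05) and the receptor gene ACVR2B by 0.31 (adjusted p = 0.00219). The receptor gene ACVR1 rose by 0.48 (edgeR adjusted p = 8.82e-07) and BMP6 by 0.40 (adjusted p = 0.000655). SMAD7, another inhibitory SMAD gene, stood at -0.12 (edgeR adjusted p = 0.0594). Whether BMP signalling changed was not tested. FST, NOG, SMAD1, SMAD6, SMAD7, BMP2, BMP6, ACVR1 and ACVR2B are named from this list for their roles, after their values were seen. So are MITF, PAX3, TCF4 and ZEB2 from theirs.

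**Figure D4:**
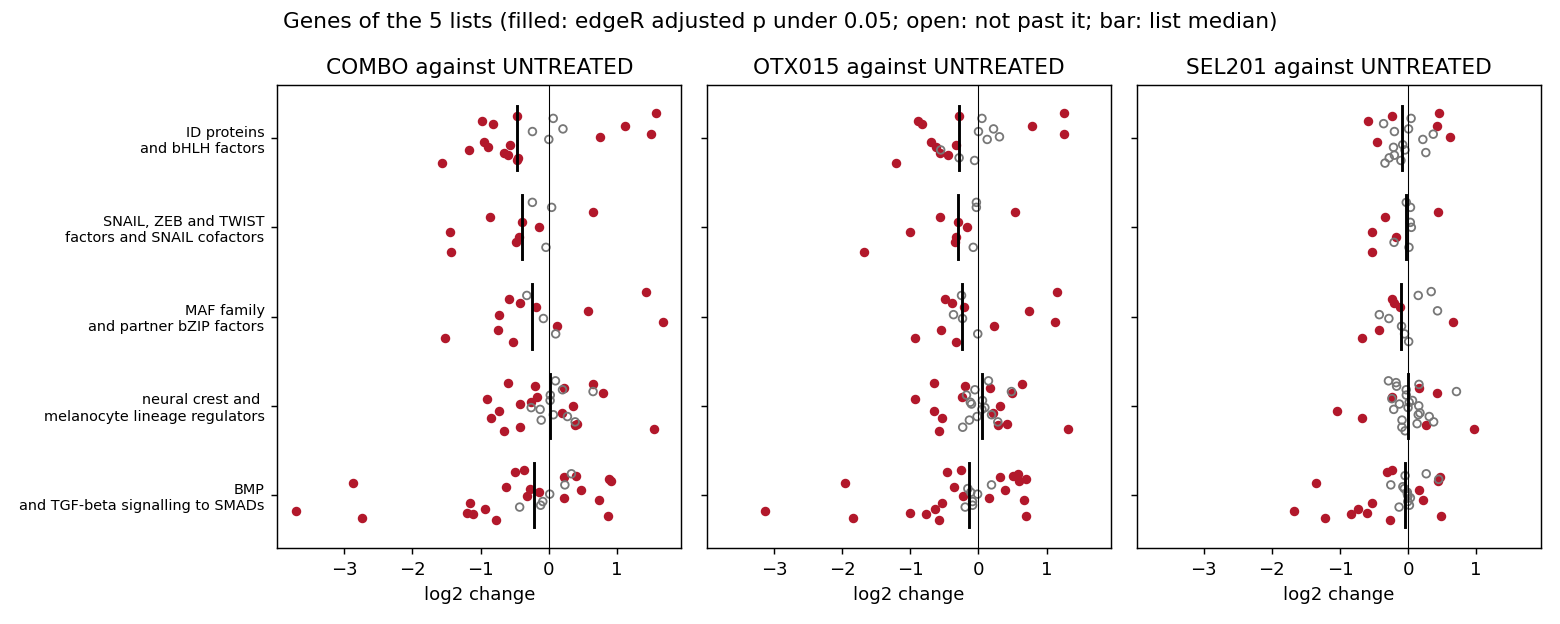
Log2 change (x axes, the same in each panel) of every measured gene of the 5 lists with COMBO, OTX015 and SEL201 against UNTREATED; filled points passed an edgeR adjusted p under 0.05, open points did not, and black bars are list medians. The ID and bHLH list has its median at -0.47 with COMBO although ID2 lies at 1.57, and the neural crest list is centred near 0 with TBX2 at 1.55.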

How the data were processed

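Raw gene counts of all libraries came in 1 table that the authors deposited. Named without roles in the submitters' processing notes are DESeq2, featureCounts, SAMtools 1.9, STAR 2.5.4b, Trimmomatic, FastQC and the build hg19. The sources used here give no annotation, strand setting or gene filter. Per the labels' protocols, libraries were stranded and poly(A)-selected, with paired reads of 150 bases. Levels are relative to the genes in the table, so a change common to most of them is removed by scaling.

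Counts were fitted with edgeR 4.0.16 in R 4.3.3 (TMM, filterByExpr, which kept all 8579 genes, glmQLFit, glmQLFTest) in 7 contrasts of group means, with all 12 libraries in 1 fit and no covariate. SE is the log2 change over the square root of F. Unless a block is named, SEs ignore the library number. With it as a block, the SEs for COMBO against UNTREATED were 0.14 for ID4, 0.11 for SNAI2 and 0.04 for MAF. The steps were checked on simulated counts drawn with no library-number effect, so that check does not cover calls that change with the block. Log2 CPM for same-number differences and correlations used a prior count of 2. Alternatives were RLE factors, DESeq2 1.42.0, other filters, a replicate block, only the compared groups, no number 3 libraries, and leaving out each library.

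The members and lists were chosen with earlier results of these data known. Named genes are the 3 members, their close relatives, per list up to 3 with the largest rise and 3 with the largest fall past the threshold under COMBO (at least 5 CPM in COMBO or UNTREATED), and per member the 5 most like and 3 most unlike genes. The numbers pair the libraries: deviations from group means correlated across genes at 0.263 to 0.574 in all 18 same-numbered pairs and at -0.462 to 0.194 in the other 36. This is read from the data, since the labels do not say what a number shares. Whether libraries are separate cultures is not labelled. The p-values then measure only how far these libraries spread, and that spread may be technical. No pair within a group was a repeat of 1 library (chi-square per degree of freedom 6.34 or more). Promoter windows come from RefSeq (GRCh38.p14), where ID4, MAF and ID2 each matched 1 window, and gene lengths and overlaps from GENCODE v29. The counts are on hg19, so no coordinates were joined to them. An item withheld for evaluation, and results that need it, are not reported here.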

Additional observations from a re-analysis of the deposited data

Results flagged for a closer look

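Without the library number as a block, the effects of the agents on 2 of the named genes differed by whether the other agent was present, by edgeR's test of the interaction, which called 0.21% of all genes above 0 and 0.0699% below. TBX2 had a log2 interaction of -0.73 (SE 0.11, edgeR adjusted p = 0.0109), with 614 CPM in COMBO against 522 in OTX015 and 410 in SEL201 against 209.8 in UNTREATED. Its adjusted p was 5.78e-09 to 0.0502, the highest without UNTREATED number 2. FST had an interaction of 1.10 (SE 0.19, edgeR adjusted p = 0.0298), with 17.0 CPM in COMBO against 25.6 in OTX015 and 70.2 in SEL201 against 224 in UNTREATED. Its call was lost in 9 of 12 fits that leave out 1 library (edgeR adjusted p up to 0.0941). With the library number as a block, this test called 579 of all 8579 genes, against 24 without it. The list genes were named for their large changes with COMBO, so no excess is read from their count. Under the block, 8 more of 32 list genes and relatives passed this test. They were NGFR (log2 interaction 0.96, edgeR adjusted p = 5.05e-06 with the block and 0.336 without), TWIST1 (-0.33, 0.000281 and 0.122), CLDN1 (0.77, 0.000541 and 0.0915), FOSL2 (0.24, 0.000811 and 0.181), NR2F1 (0.37, 0.0219 and 0.687), LTBP2 (0.32, 0.0266 and 0.382), HES2 (0.49, 0.0281 and 0.336) and BACH2 (-0.61, 0.0296 and 0.34).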

How the results depend on the processing

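All 288 alternative values for log2 changes of ID4, SNAI2 and MAF lay within the spread between replicates of the full-fit value. With 3 libraries per group, leaving out 1 moves a group mean by less than that spread. Those fits could hardly have gone otherwise, so stability is not read from them. Leaving out 1 library gave, for COMBO against UNTREATED, 1.85 to 2.38 for ID4, 1.29 to 1.64 for SNAI2 and 1.38 to 1.54 for MAF. With the replicate block, 3180 genes were called for SEL201 against UNTREATED (1820 without it), 1908 for COMBO against OTX015 (593), 3414 for OTX015 against SEL201 (2018) and 579 for the interaction (24). The SEL201 calls under the block were 13 for the ID and bHLH list (6 without it) and 16 for the neural crest list (7). The interaction count was 119 with DESeq2 and 72 without the number 3 libraries. Leaving out 1 library gave 304 to 402 genes for COMBO against OTX015 and 4 to 23 for the interaction. List calls with 1 library left out were 5 to 7 for the SNAIL list under OTX015 (8 in full), and under SEL201 3 to 6 for the ID list, 3 to 5 for the SNAIL list, 3 to 7 for the MAF list and 4 to 8 for the neural crest list (6, 5, 6 and 7 in full). The cause was not tested. Against UNTREATED, the block also changed the calls with SEL201 of HEY2 (adjusted p = 0.0207), ATOH8 (0.00494), BACH2 (0.00773) and SOX2 (0.0318) and NFE2 (0.00871), and with OTX015 of TCF15 (0.00954) and NFE2 (0.0133). Calls by edgeR with SEL201 were lost for AJUBA without UNTREATED number 3 or SEL201 number 1 or 2 (adjusted p up to 0.0969), and for FOXD3 without the same libraries (up to 0.145). With OTX015 they were lost for NGFR without UNTREATED number 3 or OTX015 number 1 or 2 (up to 0.17) and for NR2F1 without UNTREATED number 2 (0.0532). Counts of 70 to 170 limit ID4 in UNTREATED.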
